A study of Mus musculus with 16 samples.

Results

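RNA of peritoneal B1a cells was compared with RNA of splenic B cells (Bs) from the same congenic strain of mice, B6.Sle2c1. The comparison used the 8 arrays titled for that strain, 4 of B1a cells and 4 of Bs cells, out of 16 arrays in the study. The other 8 arrays held the same cell types from C57BL/6 (B6) mice, and all mice were 5 months old. B6.Sle2c1 mice carry the lupus susceptibility locus Sle2c1, derived from the NZM2410 strain, on the B6 background, and no further allele or agent is named for either strain. Splenic B cells were CD43- cells purified with a kit, above 90% B220hi per the labels. Peritoneal cells were cultured for 2 h in 10% serum to remove adherent macrophages, depleted of cells binding Thy1.2 and CD3ε antibodies, and selected with a CD5 antibody, which gave 80% B220int CD5+ cells. Tissue, culture, antibody selection and cell type therefore differed together on every one of the 8 arrays, and their parts in any difference cannot be told apart. The series calls the 4 samples of a group biological replicates, without saying whether each was 1 mouse or a pool, so the p-values measure the spread between these samples.

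B1a cells are a self-renewing B cell population of the body cavities that makes natural antibody and is known for interleukin 10 production and for blunted signalling through its antigen receptor. Most splenic B cells are follicular B cells, which recirculate through lymphoid follicles, carry CD23 and complement receptors, and present antigen to helper T cells. Expansion of B1a cells is a known trait of lupus-prone mice that carry Sle2.

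The deposited values are a processed signal of unknown log base and scaling, called the score here, and differences are given in units of that score. Values below 0.495 were treated as too low to rank and were raised to this number, called the floor. A difference from a group with all 4 arrays at the floor is a lower bound. A feature is called higher or lower in B1a cells when its adjusted p in limma's moderated test was under 0.05 (Benjamini-Hochberg over 22230 features: 14632 named genes, and 7598 probe sets that carry no name or several). Genes on the X and Y chromosomes were left out.

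In B1a cells 2426 features were higher (10.9% of those tested) and 3282 lower (14.8%). Among named genes, 1893 (12.9%) were higher and 2123 (14.5%) lower. The 4 B1a values lay wholly above or wholly below the 4 Bs values for 25.5% of the features. Of the higher features, 499 had all Bs arrays at the floor, and of the lower ones 234 had all B1a arrays at the floor. In these bulk samples, fewer cells of a type and less RNA per cell cannot be told apart.

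The direction and the calls of differences, and not only of small ones, depended on how the arrays were brought to a common scale. The bacterial hybridisation controls, added in equal amount to every array, did not read the same in both groups. The bioC control lay between 3.62 and 3.70 on the B1a arrays and between 3.98 and 4.09 on the Bs arrays, and bioB, bioD and cre were also lower on average on the B1a arrays, by 0.31, 0.22 and 0.08. The median difference of all features was -0.045 as deposited, and 42.5% of the features past the threshold were higher in B1a cells. Shifting each array so that the mean of these controls was equal moved the median to 0.137 and that share to 82.0%. After this shift 5218 of the 22230 features were higher and 1145 lower, against 2426 and 3282 as deposited. List counts given after the shift are to be read beside these totals. Fitting each array to the controls by a line moved the median to 0.425 and the share to 97.2%, with 2855 features higher and 81 lower. Ap5m1, which fell by -2.04 as deposited, changed sign under the line. The control means lie at 3.40 to 4.71, however, and most genes lie below that range. The differences and calls below keep the deposited scale and are to be read beside the median of all features. For the lists of B cell, signalling, cell cycle, growth and metabolic genes the outcome of the shift is given beside the count. The B1a arrays also correlated less with each other (Pearson's r over features 0.83 to 0.92) than the Bs arrays did (0.916 to 0.969), with the lowest mean correlation for B1a replicate 4 (0.847). Bs replicate 3 lay farthest out among the Bs arrays on the first principal component (54.2 against 24.3 to 40.2), and these arrays are called the pair that stood apart.

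The cell labels were checked first. Transcripts of CD5, the surface protein used for the selection, read 0.77 and 1.22 on B1a arrays 1 and 2, and lay at the floor on B1a arrays 3 and 4 and on all 4 Bs arrays. The groups overlapped, and the difference of 0.25 did not pass (adjusted p = 0.253 by limma, exact two-sided permutation p = 0.429, where 0.0286 is the smallest p that 4 against 4 arrays allow). In B6 mice CD5 transcripts read 1.33, 1.22, 1.12 and 0.64 in B1a cells, with all Bs arrays at the floor. That difference of at least 0.58 passed (adjusted p = 0.0164 by limma). The difference between strains did not pass (adjusted p = 0.864 by limma). Fcer2a, which encodes CD23 of follicular B cells, lay at the floor on B1a arrays 1 to 3 and at 1.06 on the fourth, against 2.79, 2.75, 2.72 and 2.79 in Bs cells. Its difference was -2.13 (SE 0.16, adjusted p = 2.46e-07 by limma, exact permutation p = 0.0286). Il10, the regulatory cytokine that B1a cells are known to secrete, read 2.67, 2.73, 2.51 and 2.69 in B1a cells and was at the floor on every Bs array. It was higher by at least 2.15 (adjusted p = 1.89e-12 by limma, exact permutation p = 0.0286), and by at least 2.31 in B6 mice. Thus 2 of these 3 marker genes separated the Sle2c1 groups, and the transcript of the selection marker did not do so in that strain.

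Cdkn2c, the inhibitor of cyclin-dependent kinases named in the title of the series, did not separate the cell types in Sle2c1 mice. It read 0.58 and 0.88 on B1a arrays 1 and 2, 0.60 on Bs array 1, and was at the floor on the other 5 arrays. The difference was 0.09 (adjusted p = 0.542 by limma, exact permutation p = 0.714), with every value close to the floor.

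Of 15 measured genes on a list of B1a cell genes, 8 were higher, 2 lower and 5 did not pass, with a median difference of 0.34 against -0.008 over all named genes. The list, like the others below, came from textbook knowledge and was drawn up with earlier results of these data known. Counts of every list are to be read beside the 12.9% of all named genes that were higher and the 14.5% that were lower. Plscr1, a phospholipid scramblase used as a B1 marker, read 3.74, 3.68, 3.69 and 3.62 in B1a cells and 1.92, 1.88, 1.95 and 1.97 in Bs cells. All B1a values exceeded all Bs values by a gap many times the spread within either group, and the difference was 1.75 (adjusted p = 8.30e-11). Ctla4, which encodes an inhibitory receptor that B1a cells hold inside the cell, read 2.61, 2.58, 2.40 and 2.82 against 0.75, 1.03, 0.91 and 0.67. The groups lay far apart, with a difference of 1.76. Zbtb32, a repressor that restrains the proliferation of B1 cells, was at the floor on all Bs arrays and read 1.94, 2.03, 2.01 and 2.11 in B1a cells, a difference of at least 1.53 (adjusted p = 1.54e-09). Ahr, the aryl hydrocarbon receptor, read 3.09, 3.21, 3.12 and 3.00 against 2.04, 1.96, 2.04 and 2.08, and the groups did not overlap.

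The other B1a genes called higher were Cd300lf, an inhibitory lipid receptor (1.36), Pdcd1lg2, which encodes the ligand PD-L2 found on many B1 cells (0.81), the tetraspanin Cd9 (0.71) and Il5ra, the receptor chain for interleukin 5 on which B1a cells depend (0.34, adjusted p = 0.013). Spn, which encodes CD43, had a difference of 0.27 (adjusted p = 0.131), and Bhlhe41, a transcription factor needed by B1a cells, read above the floor on 1 array only. Siglecg, an inhibitory lectin of B1a cells, and Nt5e, which encodes the ecto-nucleotidase CD73, were lower, by -0.27 and -0.56, the latter with 0 of 2 other probe sets in the same direction. The count of 8 higher genes was 8 or 9 whichever array was left out, and 10, with none lower, after the shift to the hybridisation controls.

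**Figure D1:**
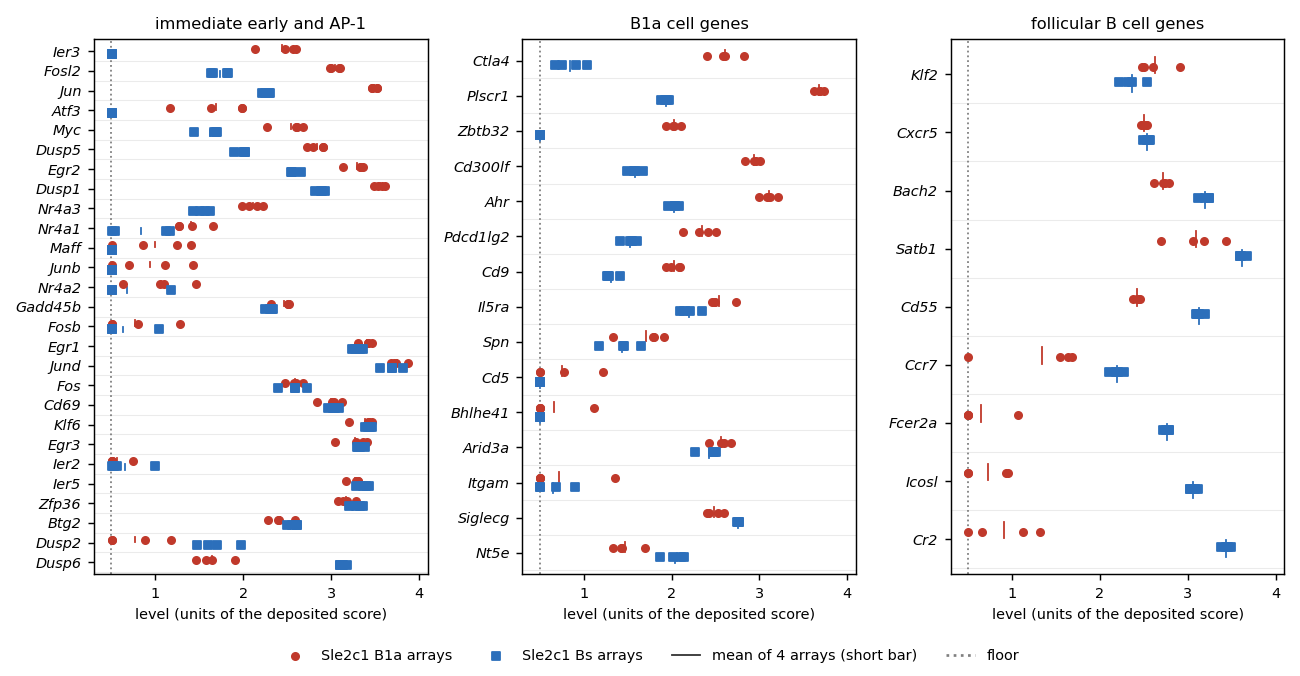
Level of each measured gene of the immediate early and AP-1, B1a cell and follicular B cell lists on the 8 Sle2c1 arrays, in units of the deposited score. Circles are the 4 B1a arrays, squares the 4 Bs arrays, short bars group means and the dotted line the floor. For Plscr1, Jun and Cr2 the groups lie far apart, while Fos, Egr1 and Cxcr5 overlap.

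Genes of follicular B cells lay on the other side. Of 9 measured, 7 were lower in B1a cells and none was higher, with a median difference of -0.71. Cr2, which encodes the complement receptor CD21, read 1.32, 0.66, the floor and 1.12 in B1a cells against 3.46, 3.43, 3.49 and 3.38 in Bs cells, a difference of -2.54 (adjusted p = 1.13e-08). Icosl, the ligand by which B cells engage follicular helper T cells, read 0.93 and 0.95 on B1a arrays 1 and 4 and was at the floor on the other two, against 3.12, 3.03, 3.02 and 3.08. Its difference of -2.35 passed (adjusted p = 1.24e-09), although its 1 other probe set did not go the same way. Cd55, which protects cells from complement, was lower by -0.71, Bach2, a repressor that keeps B cells naive, by -0.48, Satb1, a chromatin organiser, by -0.52, and the lymph node homing receptor Ccr7 by -0.85. Cxcr5, the receptor that draws B cells into follicles, differed by only -0.04 (adjusted p = 0.703), and Klf2 by 0.26 (adjusted p = 0.107). After the shift to the hybridisation controls 5 were lower and 2 higher, and the median was still negative (-0.456).

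Of 11 genes of marginal zone B cells, 4 were lower, 1 higher and 6 did not pass. Besides Cr2, Cd1d1, which presents lipids to NKT cells, read 1.64, 0.75, 1.61 and 1.53 against 2.72, 2.74, 2.78 and 2.63 in Bs cells, and Notch2, the receptor that directs the marginal zone fate, was lower by -0.37 (adjusted p = 0.000159). These groups did not overlap for either gene. Cd9, which is on both the marginal zone and the B1a list, was the member that was higher. After the shift to the hybridisation controls 2 were lower and 2 higher, and the median of -0.368 became -0.191.

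Of 15 measured components of antigen receptor signalling, 9 were lower, 1 was higher and 5 did not pass, with a median of -0.185 as deposited, which became 0.067 after the shift, below the 0.137 of all features, with 2 lower and 2 higher. Leaving out Bs replicate 1 left 5 lower, and centring the arrays on their medians 4. Rasgrp3, an exchange factor that links the receptor to Ras, read 1.38, the floor, the floor and 0.81 in B1a cells against 3.07, 3.02, 3.10 and 2.92, a difference of -2.23 (adjusted p = 1.18e-07). Blnk, the adaptor beneath the receptor, read 2.86, 2.81, 2.67 and 2.82 against 3.55, 3.54, 3.49 and 3.61. These 2 genes had the smallest adjusted p of the list, and both were also lower in B6 mice (by -1.40 and -0.71). Cd79b, the signalling chain of the receptor, read 3.21, 3.21, 3.21 and 3.23 against 3.77, 3.74, 3.71 and 3.60. The adaptor Bcl10, between the receptor and NF-kB, was lower by -0.28, and Syk, the kinase nearest the receptor, was the member that was higher, by 0.29 (adjusted p = 0.00353).

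Of 7 pan-B cell markers measured, 4 were lower (Cd79b, Ms4a1 by -0.23, Cd79a by -0.19 and Cd22 by -0.17), none was higher, and Ighm (-0.15, adjusted p = 0.094), Blk (-0.08) and Pax5 (0.03, near the floor) did not pass. The count fell to 2 without B1a replicate 3, without Bs replicate 1 or without the pair of arrays that stood apart, and to 0 after the shift to the hybridisation controls, under which the median of -0.173 became 0.079. It was 1 with arrays centred on their medians.

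Of 14 inhibitory receptors and phosphatases, 12 passed, 9 lower and 3 higher. Cd200, a ligand that quietens myeloid cells, read 2.57, 2.35, 2.41 and 2.5 against 3.18, 3.28, 3.22 and 3.30, a difference of -0.79 (adjusted p = 1.78e-07). Fcrl1, an Fc receptor-like coreceptor, was lower by -0.79, and Cd72, a coreceptor that recruits the phosphatase SHP-1, read 1.71, 1.70, 0.96 and 1.12 against 2.92, 2.92, 2.90 and 2.87. In the other direction, Fcgr2b, the inhibitory Fc receptor of B cells, read 3.33, 3.29, 3.36 and 3.36 against 2.74, 2.75, 2.78 and 2.68, and Ptpn22, a tyrosine phosphatase, was higher by 0.87 (adjusted p = 2.63e-07). Neither group of 4 overlapped with the other for any of these 5 genes. After the shift to the hybridisation controls 5 were lower and 3 higher, and the median of -0.256 became -0.004.

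Of 13 genes of MHC class II and costimulation, 8 were lower and 2 higher. Rfx5, a transcription factor of MHC class II promoters, read 3.08, 3.07, 3.06 and 3.04 in B1a cells against 3.53, 3.55, 3.49 and 3.56 (difference -0.47, adjusted p = 5.35e-06). H2-Ob, a chain of the chaperone that restrains peptide loading, was lower by -0.45, and the protease Ctss, which trims the invariant chain, by -0.25. The members that were higher were Cd80 and Cd86, which encode ligands of CD28 and CTLA-4 on T cells. Cd80 read 2.13, 2.04, 2.01 and 2.20 against 0.67, 0.60, 1.29 and the floor, and Cd86 rose by 0.29 (adjusted p = 0.0128). The median of the list, -0.225, became 0.027 after the shift to the hybridisation controls, with 3 lower and 2 higher, and the lower count was also 3 with arrays centred on their medians.

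Among 18 transcription factors of the B lineage, 8 were lower and 2 higher. Id3, an inhibitor of E proteins, was at the floor on all B1a arrays and read 2.11, 2.11, 2.11 and 2.03 in Bs cells, and its fitted difference of -1.59 is a bound (adjusted p = 2.80e-07). Runx3 read 1.08, 1.02, the floor and 0.66 against 2.06, 1.99, 1.92 and 1.88, and Spib, a factor of antigen receptor responses, was lower by -0.68. Zeb2 read 3.41, 3.44, 3.49 and 3.31 against 2.52, 2.61, 2.63 and 2.53 and was higher, as was Id2 (0.40, adjusted p = 8.72e-05). For these genes the groups were separate on every array. The shift to the hybridisation controls left 3 lower and 4 higher and turned the median from -0.222 to 0.029, and centring on medians left 5 lower.

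Of 13 genes of BAFF, CD40 and TNF receptors, 5 were lower and 1 higher. Traf5, an adaptor of this family, was lower by -1.32, Tnfrsf13c, the BAFF receptor that B cells need to survive, by -0.43, and Cd40 by -0.46, while Tnfrsf1b, a TNF receptor, was higher by 0.75 (adjusted p = 0.000113). The BAFF receptor read 3.67, 3.66, 3.66 and 3.59 in B1a cells and 4.08, 4.09, 3.99 and 4.12 in Bs cells, with no overlap. Only 1 of the genes was lower after the shift, when the median of -0.158 became -0.011.

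Of 16 genes of antibody secretion, 2 were higher and 4 lower, against 6 higher and 3 lower after the shift to the hybridisation controls, which turned the median from -0.035 to 0.164. Igha, the constant region of IgA, was at the floor on all B1a arrays and read 2.74, 2.75, 3.13 and 2.86 in Bs cells. Jchain, which joins IgA and IgM into polymers, read 1.96, 2.19, 1.57 and 2.03 against 3.79, 3.83, 3.80 and 3.83, a difference of -1.88 (adjusted p = 1.73e-08). Prdm1, which encodes Blimp-1, the regulator that drives plasma cell formation, went the opposite way and read 3.04, 2.94, 2.79 and 3.14 against 1.31, 1.31, 1.02 and 1.65. It was higher by 1.66 (adjusted p = 2.68e-06). Xbp1, the factor that expands the secretory apparatus, did not pass (0.09, adjusted p = 0.478).

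Signalling genes that respond within minutes to stimulation were examined next, since the B1a preparations alone were cultured. Of 27 immediate early and AP-1 genes, 11 were higher, 2 lower and 14 did not pass, with a median of 0.157. After the shift to the hybridisation controls 16 were higher and 2 lower. Jun, a subunit of the AP-1 factor, read 3.52, 3.47, 3.47 and 3.52 in B1a cells against 2.31, 2.29, 2.21 and 2.25. The groups were more than a unit apart (difference 1.23, adjusted p = 4.85e-10). Ier3 was at the floor on all Bs arrays and read 2.48, 2.13, 2.57 and 2.60 in B1a cells, and Fosl2, another AP-1 subunit, read 3.10, 2.99, 3.00 and 3.09 against 1.66, 1.63, 1.83 and 1.81. Dusp5, Egr2, Myc, Dusp1, Atf3, Nr4a3, Nr4a1 and Maff were the other members that were higher, by 0.50 (Maff) to 1.19 (Atf3, a bound). Not all early genes followed. Fos read 2.68, 2.60, 2.48 and 2.58 against 2.59, 2.73, 2.40 and 2.59 (adjusted p = 0.970), and Egr1 differed by 0.11 (adjusted p = 0.296). Dusp6, a phosphatase that acts on ERK and is induced by it, was lower, with 1.64, 1.46, 1.58 and 1.91 against 3.10, 3.14, 3.10 and 3.18 (adjusted p = 1.66e-08). In B6 mice 16 of the 27 were higher and 3 lower.

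The 250 bases before the RefSeq transcription start (GRCm38.p6) are shown for 4 of the 5 genes of the early response, STAT and chemokine lists that were higher and whose stretch held a match to 1 of 4 motifs searched on both strands. The motifs were AP-1 (TGANTCA, in 6.75% of all 32851 promoter stretches of this length), the cyclic AMP response element (TGACGTCA, 1.55%, which contains no AP-1 match), NF-kB (GGGA, any base, then TTTCC, or the reverse complement, 0.356%) and STAT (TTCNNNGAA, 7.02%). Capitals mark the match. The fifth gene, Maff, held a cyclic AMP element at 1 of its starts. Cxcl2 lies at chr5:90903649-90903898 on the plus strand with its match 97 bases before the start, Cxcl1 at chr5:90890995-90891244 on the plus strand (71 bases before), Socs3 at chr11:117969367-117969616 on the minus strand (154 bases before) and Dusp1 at chr17:26508473-26508722 on the minus strand (143 bases before).
Cxcl2: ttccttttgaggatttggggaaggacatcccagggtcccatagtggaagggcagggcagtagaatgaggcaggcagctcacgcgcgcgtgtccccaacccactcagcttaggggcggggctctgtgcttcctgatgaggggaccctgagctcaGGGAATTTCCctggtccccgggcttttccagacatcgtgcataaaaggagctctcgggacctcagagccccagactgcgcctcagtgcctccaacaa
Cxcl1: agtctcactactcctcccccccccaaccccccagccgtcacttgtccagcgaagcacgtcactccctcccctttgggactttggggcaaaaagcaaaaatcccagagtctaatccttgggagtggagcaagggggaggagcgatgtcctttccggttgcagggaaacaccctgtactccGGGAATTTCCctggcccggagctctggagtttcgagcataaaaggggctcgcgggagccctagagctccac
Socs3: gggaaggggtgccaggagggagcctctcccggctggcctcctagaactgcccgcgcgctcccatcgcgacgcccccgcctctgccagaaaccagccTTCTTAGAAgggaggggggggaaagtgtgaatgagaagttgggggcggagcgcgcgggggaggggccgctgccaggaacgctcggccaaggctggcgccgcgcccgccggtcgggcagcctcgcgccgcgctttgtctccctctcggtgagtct
Dusp1: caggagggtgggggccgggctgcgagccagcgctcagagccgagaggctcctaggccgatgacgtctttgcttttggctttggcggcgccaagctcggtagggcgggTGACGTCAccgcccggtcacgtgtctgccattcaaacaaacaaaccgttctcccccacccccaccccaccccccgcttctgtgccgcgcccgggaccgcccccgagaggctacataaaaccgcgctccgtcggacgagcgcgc

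In these sequences both chemokine stretches carry the same NF-kB letters, the Socs3 stretch a STAT match and the Dusp1 stretch a cyclic AMP element. Counted per gene, over any of its starts, a cyclic AMP element was held by 2 of 10 early genes that were higher and by 1 of 10 that did not pass. A STAT match was held by 1 of 4 STAT and SOCS genes that were higher and by 0 of 8 that did not pass, and an NF-kB match by 2 of 3 and 0 of 5 chemokines. An AP-1 match was found in 0 of 10 early genes that were higher and 0 of 10 that did not pass. Outside these pairs of list and motif, a cyclic AMP element was held by 1 of 8 STAT and SOCS genes that did not pass, a STAT match by 1 of 10 such early genes and 1 of 5 such chemokines, and an AP-1 match by 1 of 5 such chemokines and by the 1 that was lower. The shares over all promoters are per stretch, and a gene can have several. The counts cover only list members with a promoter stretch available, which are fewer than the members measured. These are matches of letters in a short window and were not tested as binding sites. Jun, Ier3, Fosl2 and Ccl3 had no match in theirs.

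Cytokine signalling genes were high in B1a cells in part. Of 14 STAT and SOCS genes, 4 were higher and 1 lower (8 and 1 after the shift to the hybridisation controls). Socs3, the feedback inhibitor of receptors that act through STAT3, read 3.70, 3.60, 3.60 and 3.58 in B1a cells against 1.60, 1.27, 0.90 and 1.98 in Bs cells. The difference was 2.18 (SE 0.227, adjusted p = 6.89e-06). Cish, the feedback inhibitor induced by STAT5, was at the floor on every Bs array and read 2.29, 2.12, 2.24 and 2.34 in B1a cells. Pim1, a kinase induced by STATs, read 3.93, 3.79, 3.83 and 3.70 against 2.91, 2.96, 2.84 and 3.06, and Stat3 itself was higher by 0.64 (adjusted p = 1.61e-05). None of these 4 genes overlapped between groups. Socs1 and Socs2 did not pass, and Stat4, a factor of interleukin 12 signalling, was lower by -0.73 (adjusted p = 0.000416).

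Of 20 cytokine receptors, 8 were higher and 1 lower (9 and 0 after the shift, and 5 and 1 with arrays centred on their medians). Il6st, the shared gp130 chain of the interleukin 6 family, read 2.82, 2.78, 2.81 and 2.93 against 1.63, 1.55, 1.72 and 1.69 (difference 1.19, adjusted p = 1.48e-08). Il2ra, the high-affinity chain of the interleukin 2 receptor, read 2.20, 2.29, 2.55 and 2.60 against the floor, 0.64, 0.70 and the floor. Csf2rb, the beta chain shared by the receptors for interleukin 3, interleukin 5 and GM-CSF, was also higher, by 0.88. Its relative Csf2rb2 was higher by 0.82. Every B1a value of these 4 genes lay above every Bs value. Il10ra, the receptor for interleukin 10, was the member that was lower (-0.34, adjusted p = 0.00628).

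Among 14 cytokines, 6 were higher and 2 lower (7 and 2 after the shift). Besides Il10, these were Csf1, the macrophage growth factor, which was at the floor on all Bs arrays and read 2.22, 2.10, 2.02 and 2.09 in B1a cells, and the inflammatory cytokine Il1b, which read 3.04, 3.10, 3.16 and 3.25 against 0.98, 0.59, 1.34 and 1.14. Il18 was higher by 0.93. Il6, the cytokine of acute responses, was higher by 0.59 (adjusted p = 0.0239) with overlapping groups, and by 1.63 in B6 mice, a difference between strains that did not pass. Ltb and Lta, the lymphotoxins by which B cells maintain follicles, were lower by -1.37 and -1.24, with no overlap. Of 14 chemokines, 4 were higher and 1 lower. The higher count fell to 2 or 3 whichever 1 array was left out. It was 2 without the pair of arrays that stood apart, without B1a replicate 4, without Bs replicate 1 or without Bs replicate 3. Cxcl2, which attracts neutrophils, read 3.48, 3.37, 3.57 and 3.57 against the floor, 0.95, 0.70 and 1.04 (difference 2.70, adjusted p = 1.53e-08). Cxcl1, its close relative, read 1.97, 1.45, the floor and 1.88 and overlapped with Bs cells (0.84, adjusted p = 0.0390). Ccl3 was higher by 1.25 (adjusted p = 0.0274), Cxcl16 by at least 0.78 with 1 B1a array at the floor, and Ccl9 lower by -0.56. After the shift 5 chemokines were higher and 0 lower. None was lower without B1a replicate 1 or 2 or without Bs replicate 3 or 4, and 2 were without B1a replicate 3 or Bs replicate 1.

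Of 17 Toll-like receptors and their partners, 8 were higher and 2 lower (10 and 2 after the shift). Cd14, the co-receptor for lipopolysaccharide, was at the floor on all Bs arrays and read 2.69, 2.66, 2.77 and 2.98 in B1a cells. Ly96, which binds lipopolysaccharide beside TLR4, read 2.55, 2.54, 2.55 and 2.54 against 1.91, 1.86, 1.96 and 1.77. Tlr1 and Tlr3, receptors of lipopeptides and of double-stranded RNA, were lower by -0.58 and -0.73 (adjusted p = 1.83e-06 and 1.04e-05). So the list held genes that differed strongly in both directions, and Tlr4 was among those that did not pass. Of 15 NF-kB subunits and feedback genes, 5 were higher and 1 lower, against 8 and 0 after the shift and 3 and 1 with arrays centred on their medians. Bcl3, a nuclear partner of NF-kB, read 2.61, 2.60, 2.46 and 2.66 against 1.5, 1.5, 1.59 and 1.40, and the subunit Rela was higher by 0.80, Tnfaip2 by 0.87, Nfkbid by 0.28 and Rel by 0.23. The lower member, the subunit gene Nfkb2 (-0.52, adjusted p = 0.035), lost the call without the pair of arrays that stood apart and without any 1 array other than B1a replicates 1 and 2. Nfkbia and Tnfaip3, feedback inhibitors induced by NF-kB, did not pass.

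Cd14, Il1b, Trem1 and Ccr1 are also genes of myeloid cells, and markers of other cells were measured beside them. The part of myeloid cells in the values of these genes was not tested. Most macrophage markers were not higher in these B1a preparations, with Cd68 an exception. C1qb and C1qc were at the floor on all 8 arrays, Csf1r was at the floor on all B1a arrays and at 1.21 to 1.51 in Bs cells, and Lyz2 read 1.93 to 2.12 in B1a cells against 3.01 to 3.27. Of 10 macrophage markers, 1 was higher (Cd68, 0.83) and 4 lower, or 2 lower without the pair of arrays that stood apart, and their mean level was 0.895 to 1.02 over the B1a arrays against 1.17 to 1.27. Of 6 neutrophil markers, S100a8 and S100a9 were higher, by 0.89 and 0.94, and Mpo was lower (-0.46, adjusted p = 0.0418). No neutrophil marker was lower without the pair of arrays, without B1a replicate 1 or 2, or without any 1 Bs array. Their mean level was 1.54 to 1.69 against 1.38 to 1.88.

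Mast cell markers were the list of other cells with the most members higher. Hdc, the enzyme that makes histamine, read 2.26, 1.96, 2.12 and 2.24 in B1a cells and was at the floor on all Bs arrays. The protease genes Cpa3 and Cma1 were higher by 0.96 and 0.72, and Kit did not pass. The mean over 8 mast cell markers was 0.918 to 1.45 in B1a cells against 0.540 to 0.798, without overlap, and 3 of 8 were higher (2 to 4 when an array was left out). The part of these cells in the cytokine, chemokine and receptor results was not tested. Of the 6 T cell markers, Cd8a was lower and none was higher, with Cd3e at 2.09, 1.44, 0.70 and the floor in B1a cells against the floor, the floor, 1.09 and 0.62. One T cell marker was higher without B1a replicate 1 or 3. Klrk1 and Gzma of NK cells (not past without the pair of arrays), Car1 of erythroid cells, and Ppbp of platelets (2.04 to 2.37 in Bs cells) were lower in B1a cells. Zbtb46 of dendritic cells was lower and Batf3 higher, and none of 5 eosinophil and 5 stromal markers passed. Of the 6 markers of large peritoneal macrophages, Timd4 was lower (adjusted p = 0.0469) and none was higher. That call was lost without the pair of arrays, without B1a replicate 1 or 4, and without Bs replicate 1, 2 or 3. The mean level of these markers was 0.965 to 0.996 in B1a cells against 1.12 to 1.54.

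**Figure D2:**
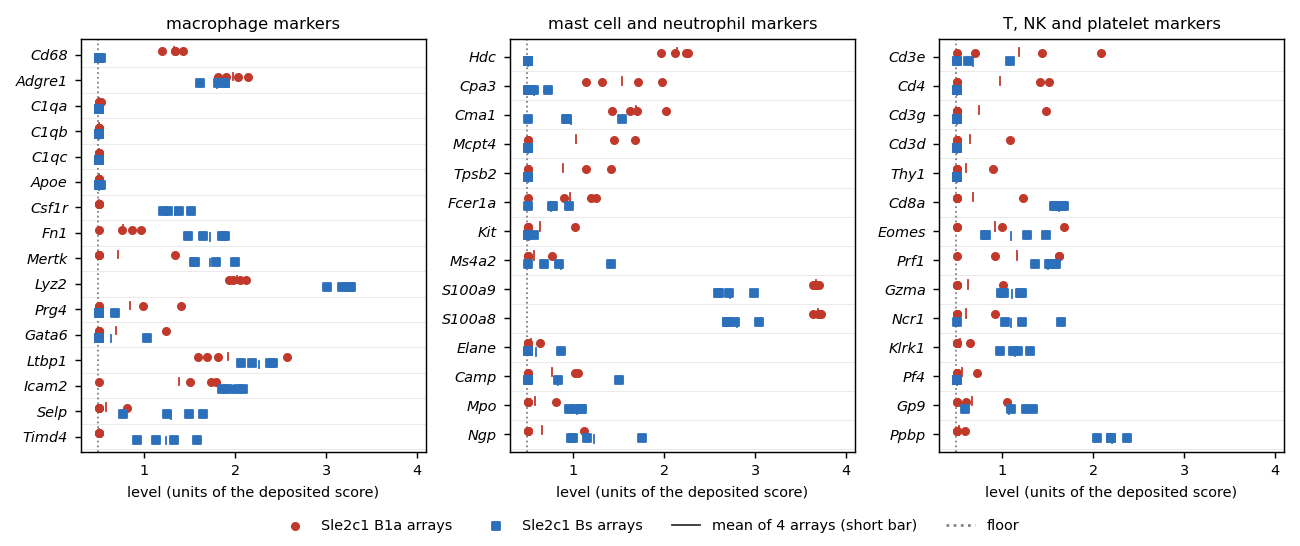
Level of markers of other cell types on the 8 Sle2c1 arrays, in units of the deposited score, with circles for the 4 B1a arrays, squares for the 4 Bs arrays, short bars for group means and a dotted line at the floor. C1qb and C1qc lie at the floor throughout, Lyz2 is lower in B1a cells, and Hdc, S100a8 and S100a9 are higher.

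Trafficking and adhesion lists held members in both directions, as did all named genes (12.9% higher and 14.5% lower). Of 15 chemokine and lipid guidance receptors, 2 were higher and 5 lower (5 and 5 after the shift to the hybridisation controls). Ccr1, a receptor for inflammatory chemokines, read 2.94, 2.98, 2.99 and 2.98 against 1.30, 1.12, 1.62 and 1.45, while Cnr2, the cannabinoid receptor that helps to hold B cells in the marginal zone, read 1.06, the floor, 0.54 and the floor against 2.57, 2.64, 2.63 and 2.63. Both differences exceeded the spread within either group (adjusted p = 4.66e-07 and 1.14e-06). Gpr132 and S1pr4 were lower by -0.78 and -0.90. Among 18 integrins and adhesion genes, 7 were higher and 3 lower (9 and 1 after the shift). Itgb7, a chain of a gut-homing integrin, was higher by 0.58, Emb by 0.61 and Cd9 by 0.71, and Itga4, the partner of Itgb7, was lower by -0.35.

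The cell cycle lists did not all go one way. Of 25 mitosis genes, 17 were lower and 2 higher, with a median of -0.55. Top2a, the topoisomerase of dividing cells, read 2.58, 2.12, 2.20 and 2.36 against 2.85, 2.74, 2.84 and 2.76, and Mki67, a proliferation marker, read 1.75, 1.09, 1.19 and 1.78 against 2.09, 2.24, 2.43 and 1.99. Cdk1, the mitotic kinase, was lower by -0.86 and Bub1b by -0.63, with both near the floor in B1a cells. The lower count was 12 to 17 when 1 array was left out, 11 without the pair of arrays that stood apart and 5 after the shift to the hybridisation controls, when the median was -0.319. Without a floor it was 7. The higher members were Cks2 (0.22) and Cenpf (0.64), a count of 2 that was 0 without Bs replicate 2 or 4 and 1 without B1a replicate 1, Bs replicate 1, Bs replicate 3 or the pair of arrays. Fitted to the controls by a line, the median turned to 0.208, below the 0.425 of all features. In contrast to mitosis genes, only 2 of 21 DNA replication genes were lower (Rrm2 by -0.58 and Lig1 by -0.35) and none was higher, that is 9.52% of the list past the threshold. That count was 6 without B1a replicate 4, 4 without Bs replicate 4 and 0 after the shift to the hybridisation controls, when 6 were higher.

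Of 20 regulators of the G1 phase, 4 were higher (2 without B1a replicate 2, Bs replicate 1 or Bs replicate 2, or with centring on medians) and 6 lower, against 7 and 3 after the shift to the hybridisation controls. Ccnd2, the D cyclin that B cells induce to enter the cycle, read 3.17, 3.35, 3.34 and 3.29 against 2.52, 2.34, 2.5 and 2.32. Cdkn2d, which encodes the INK4 inhibitor p19 and is a relative of Cdkn2c, read 3.02, 2.68, 2.76 and 2.75 against 1.91, 1.84, 1.55 and 2.00, and Cdkn1b, which encodes the inhibitor p27, read 3.39, 3.28, 3.18 and 3.27 against 3.81, 3.87, 3.77 and 3.89. Ccnd2 and Cdkn2d were thus higher and Cdkn1b lower with no overlap (adjusted p = 1.61e-06, 1.15e-05 and 1.05e-05). Ccnd1, a D cyclin, was at the floor on 3 of 4 B1a arrays and lower (adjusted p = 0.000369). Quiescence genes, which hold lymphocytes at rest, were lower for 10 of 18 and higher for 1, with a median of -0.219 that became 0.033 after the shift, when 4 were lower and 3 higher. Sesn1 was lower by -0.84, Klf3 by -0.54 and Foxo3 was also lower, whereas Pik3ip1, an inhibitor of PI3 kinase, was higher by 0.66 (adjusted p = 1.02e-06).

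Genes of growth lay on the higher side. Of 18 Myc and ribosome biogenesis genes, 10 were higher and none lower, with a median of 0.281. Myc read 2.60, 2.61, 2.68 and 2.27 against 1.69, 1.44, 1.70 and 1.67 (difference 0.92, adjusted p = 3.76e-05). Mxd1, which encodes a Max partner that opposes Myc, was also higher, by 0.88. Odc1 and Srm, enzymes of polyamine synthesis, were higher by 0.41 and 0.78. The count was 9 to 11 when 1 array was left out, 6 when arrays were centred on their medians, and 14 after the shift. Of 16 ribosomal protein genes none was higher and 2 were lower, by -0.17 (Rps2) and -0.15 (Rps9), against 3 higher and none lower after the shift. Either 1 or none of them was lower without B1a replicate 2 or 4 or without Bs replicate 1, 2 or 3.

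Metabolic genes were mixed. Of 15 genes of glycolysis and glucose uptake, 8 were higher and 2 lower, but the count of higher genes was 4 without the pair of arrays that stood apart and 3 to 5 without any 1 array other than B1a replicate 4. It was 3 with arrays centred on their medians and 12, with 1 lower, after the shift. Pfkfb3, which makes the activator of phosphofructokinase, read 3.02, 2.85, 2.97 and 3.10 against 2.05, 2.07, 2.21 and 2.21, and hexokinase Hk2 was higher by 0.68. Both were clearly separated, while Pfkl was lower by -0.71 and the glucose transporter Slc2a3 by -0.31. Of 13 cholesterol synthesis genes 6 were lower, among them Msmo1 (-0.87), Insig1 (-0.38) and Hmgcs1 (-0.30), and none was higher, against 1 lower in B6 mice. The shift to the hybridisation controls left 1 lower with a median of -0.133 in place of -0.354. Of 21 oxidative phosphorylation genes, Cycs was higher (0.36) and Atp5a1 lower (-0.17), the latter call being lost without any 1 array other than B1a replicates 1 and 3. Of 19 proteasome genes, 3 were higher (1 without B1a replicate 2 or without the pair of arrays, 0 with arrays centred on their medians) and 0 lower. After the shift 11 of the former and 14 of the latter were higher, when 5218 of all 22230 features were.

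**Figure D3:**
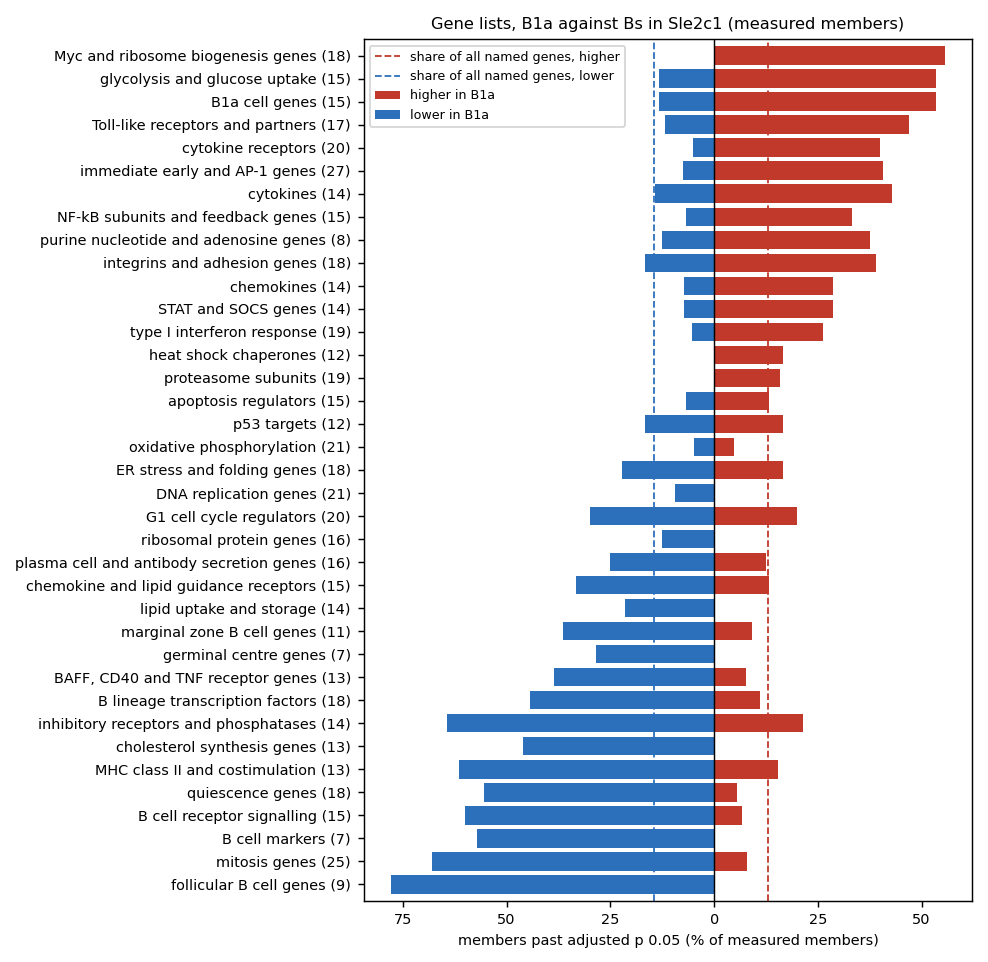
Share of the measured members of each gene list that were higher (right) or lower (left) in Sle2c1 B1a than in Bs cells, in percent, with the number measured in parentheses and dashed lines at the shares over all named genes (12.9% and 14.5%). Myc and B1a genes extend to the right, follicular and mitosis genes to the left.

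Across all named genes, the 10 largest rises among those above the floor on all 8 arrays were in Lmo7, Ifi207, Zscan29, Socs3, Il1b, Fgl2, Trem1, Slc7a7, Ranbp6 and Ctla4. Lmo7, a LIM domain protein of cell junctions, led with 3.33, 3.21, 3.28 and 3.21 in B1a cells against 1.03, 0.52, 0.92 and 0.73 (difference 2.46, adjusted p = 2.99e-08). Ifi207, an interferon-inducible gene of the p200 family, read 3.38, 3.38, 3.22 and 3.29 against 1.08, 1.17, 0.98 and 0.65, and Fgl2, a secreted or membrane fibrinogen-like protein with immune suppressive action, read 3.56, 3.64, 3.60 and 3.49 against 1.38, 1.45, 1.52 and 1.58. Trem1, a receptor that amplifies inflammatory responses of myeloid cells, read 2.82, 2.60, 2.55 and 2.73 against 0.63, 0.57, 0.67 and 1.01. In all 10 the groups were separate, and the differences were 1.76 to 2.46. Ranbp6 had 1 other probe set, which did not go the same way.

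The 10 largest falls of the same kind were in Jchain, Tlcd1, Zfp353-ps, Meaf6, Chchd10, Pxdc1, Akap2, Tspan8, Cd72 and a variable segment gene of the kappa light chain, by -1.88 to -1.53. The kappa variable segment, a part of the antigen receptor, read 0.83, 1.48, 1.38 and 0.97 against 2.94, 2.96, 2.92 and 2.79. Chchd10, a mitochondrial protein, read 0.98, 1.26, 0.70 and 0.90 against 2.79, 2.57, 2.66 and 2.47. Tspan8, a tetraspanin, read 0.53, 1.17, 1.33 and 0.83 against 2.40, 2.75, 2.81 and 2.12 (adjusted p = 0.00826), and it missed the threshold without the pair of arrays that stood apart (adjusted p = 0.0504). For Meaf6 the 1 other probe set did not go the same way.

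**Figure D4:**
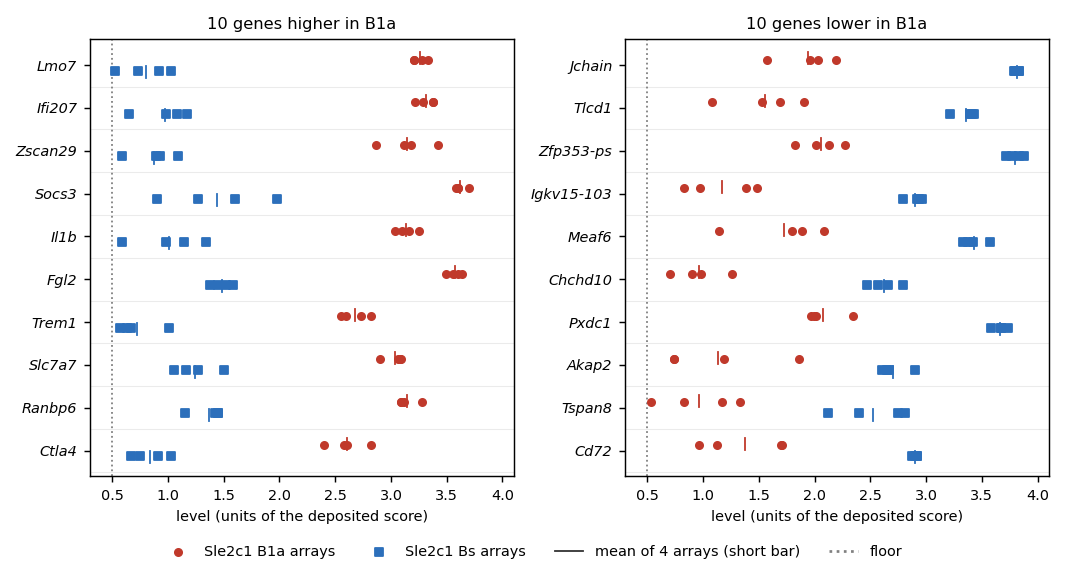
Level of the 10 named genes with the largest rise and the 10 with the largest fall in Sle2c1 B1a against Bs cells, among genes above the floor on all 8 arrays, in units of the deposited score. Circles are the 4 B1a arrays, squares the 4 Bs arrays, short bars their means, and the dotted line the floor. The groups are separate in all 20 genes.

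Among genes at the floor on every array of one group, the highest in B1a cells were Cep128, Usp50, Snd1, Efcab1 and Syne2, higher by at least 2.58 to 2.74. The highest in Bs cells with all B1a arrays at the floor were Rps27, Igha, Dact3, Ap5m1 and Insm2. Rps27, a protein of the small ribosomal subunit, read 3.67, 3.66, 3.65 and 3.55 in Bs cells. No other probe set of Rps27 passed the filter, so its difference could not be checked on a further one. Several of these rest on 1 probe set. The other probe sets of Cep128 (0 of 3), Snd1 (0 of 1), Dact3 (0 of 2) and Insm2 (0 of 1) did not go the same way. Syne2, a large nuclear envelope protein, and Usp50, a ubiquitin protease relative, had 1 of 2 and 1 of 1 other probe sets in the same direction. Those probe sets differed by only 0.01 and 0.15 and did not pass (adjusted p = 0.993 and 0.486 by limma over all probe sets). By the same test, the others of Efcab1 differed by -0.52 and 0.14 and did not pass (adjusted p = 0.0517 and 0.723). The others of Ap5m1 differed by -0.04 (adjusted p = 0.847) and -0.46 (adjusted p = 0.0281). Those of Igha were lower by -2.2 and -1.53 and passed.

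The same comparison within B6 mice used none of these 8 arrays but the same tissues and the same culture of the peritoneal cells. In B6 mice 2002 features were higher (9.01%) and 2741 lower (12.3%). Of the features higher in Sle2c1 B1a cells, 1426 were also higher in B6 (58.8% of the Sle2c1 and 71.2% of the B6 features), 1862 were lower in both (56.7% and 67.9%), and 7 went opposite ways. Passing in one strain and not in the other does not show that strains differ, so the difference itself was tested. It passed for 96 features (0.432%), 59 with B1a minus Bs greater in Sle2c1 and 37 smaller. Leaving out 1 Sle2c1 array gave 34 to 98 and 16 to 82, respectively. The greater count was 98 and 91 without B1a replicates 1 and 4, and 34, 34 and 35 without Bs replicates 1, 2 and 3, and the smaller count was 82 without B1a replicate 1 and 16, 19 and 20 without those Bs replicates. Of the 59, 24 had all B6 B1a arrays at the floor. With arrays fitted to the hybridisation controls by a line, 0 passed by limma in either direction, and 969 had an unadjusted p under 0.05 (1642 as deposited).

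Of the genes with a greater difference in Sle2c1, Olfr480, an olfactory receptor gene, read 2.21, 2.13, 2.16 and 2.17 in Sle2c1 B1a cells and 0.76, 0.77, the floor and 0.96 in B6 B1a cells, and was at the floor in all Bs cells (difference between strains 1.42, adjusted p = 1.25e-05). Sall3, Limch1 and Tdpoz1 were at the floor on all B6 arrays of both cell types and at 1.65 to 1.99 on the Sle2c1 B1a arrays. Their differences between strains were 1.36, 1.32 and 1.24. With every B6 array at the floor, B1a minus Bs could not be measured in B6 for these genes. In Sle2c1 Bs cells they were also at the floor, or at most at 0.52 (Limch1). The values thus give only the level of Sle2c1 B1a cells above the floor. The call was lost in 3, 2 and 3 of 24 alternatives. Extl1 differed by 1.16 (adjusted p = 0.0402) and lost the call when any of 5 arrays was left out.

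Smaller means a lower signed B1a minus Bs in Sle2c1, also where the strains differ in sign. Of the genes with a smaller difference, Ackr3, the scavenging receptor of CXCL12, was at the floor on all Sle2c1 B1a arrays. It read 1.75, 1.35, 1.21 and 1.24 in B6 B1a cells, against 2.37, 2.32, 2.46 and 2.26 in Sle2c1 Bs cells and 1.99, 2.05, 1.78 and 1.95 in B6 Bs cells. It was lower in B1a cells of both strains, more so in Sle2c1 (difference between strains -1.30, adjusted p = 0.00062). Adamts4, a protease of matrix proteoglycans, read 1.62, 1.92, 1.94 and 1.61 in B6 B1a cells and lay between the floor and 0.61 in Sle2c1 B1a cells (-1.45, adjusted p = 0.000523). Within Sle2c1 its B1a minus Bs was -0.17 and did not pass (adjusted p = 0.273 by limma), against 1.28 in B6. Timd4, the phosphatidylserine receptor of peritoneal macrophages, was at the floor on all Sle2c1 B1a arrays and read 2.43, 1.54, 2.16 and 2.85 in B6 B1a cells, and Lpl, lipoprotein lipase, was at the floor in the former and at 1.33 to 1.97 in the latter. The differences between strains of Timd4, Lpl and Faah were -1.92, -1.30 and -1.30, and the call was lost on leaving out any of 6, 1 and 3 of the 8 arrays. For these genes B1a minus Bs passed in both strains, negative in Sle2c1 and positive in B6. It was -0.74 and 1.17 for Timd4, -0.82 and 0.48 for Lpl, and -0.68 and 0.63 for Faah. The mean of the 6 markers of large peritoneal macrophages, of which Timd4 is one, was 1.38 to 2.24 in B6 B1a cells and 0.965 to 0.996 in Sle2c1 B1a cells, and its part in these results was not tested.

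**Figure D5:**
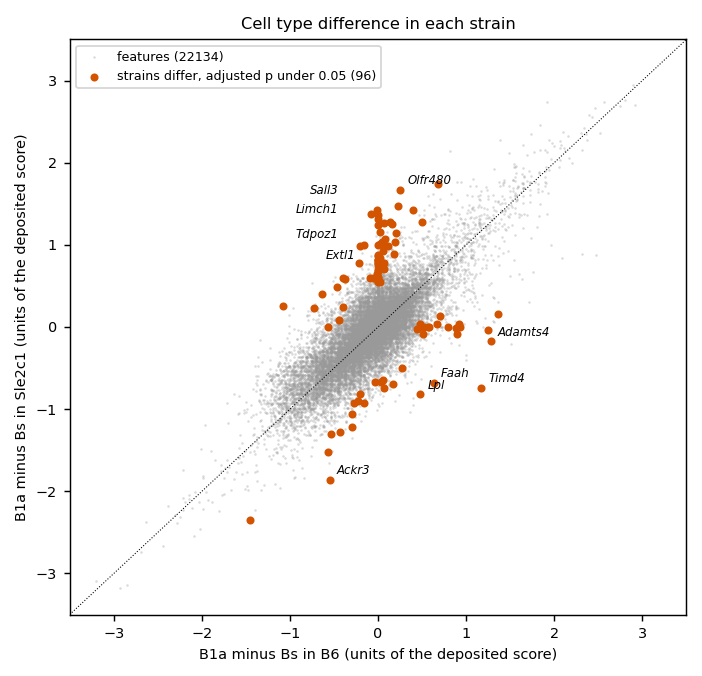
Difference of B1a minus Bs cells in Sle2c1 (vertical) against that in B6 mice (horizontal), in units of the deposited score, for the features tested. Large points are the 96 features whose differences passed the test between strains, with the 10 named genes of the text labelled, and the dotted line marks equal differences.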

How the data were processed

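RNA, amplified and labelled with biotin, was measured on 16 mouse arrays. The deposited data are a table with 45101 probe sets, 64 being array controls, whose unit is the authors' score: a processed signal whose log base, centring and scaling are not given in the sources used here, nor are the software and genome build. No counts or depth underlie it, so the number of arrays limits the precision. Differences are not turned into fold changes. The floor of 0.495 is the 40th percentile of an array, taken as the median of the 16. To be kept, a probe set had to exceed that percentile of the array in 4 or more of the 16. Gene names came from the platform annotation (34958 probe sets with 1 gene, 932 with several, 9211 with none), updated by gene identifier through RefSeq (99.4% of those with 1 gene). Each gene was represented by its probe set of highest mean, and 497 features on X and Y were left out.

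Group means were fitted over 16 arrays by limma (version 3.58.1, R 4.3.3, statmod 1.5.0), without a replicate block, and checked on simulated data. Tests were two-sided. Same-numbered replicates did not deviate together (r of -0.275 to 0.169). Lists named 680 genes, of which 602 were measured, 21 fell below the filter, 53 had no probe set of that single name and 4 lie on X or Y. Members and lists were chosen with earlier results of these data known. The genes named are the 10 largest differences each way above the floor on 8 arrays, the 5 each way with a group at the floor, in each list the 4 of lowest adjusted p, the 5 largest strain differences each way, and Cdkn2c, Cd5, Fcer2a and Il10. Other list members named were chosen after their values were seen. Alternatives varied scaling, floor, filter, choice of probe set, block, threshold and arrays.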

Additional observations from a re-analysis of the deposited data

Results flagged for a closer look

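Among the genes named, 365 groups of 4 arrays were examined for a value far from the other 3, and 23 (6.3%) had one, where chance gives about 1 in 20. By array, these lay on B1a replicate 4 (7), B1a replicate 1 (4), B1a replicate 2 (1), Bs replicate 4 (6), Bs replicate 2 (3), Bs replicate 1 (1) and Bs replicate 3 (1).

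On B1a replicate 4, Sdf2l1, a folding factor of the endoplasmic reticulum, read 0.65 against 1.68 to 1.80 on the other B1a arrays, and Tlr3 read 2.47 against 2.08 to 2.13. The rest of its values lay closer to the others, with Syne2 at 2.97, Cd79b at 3.23, Ms4a1 at 3.69, Tnfrsf13c at 3.59 and Rpl4 at 3.78. On B1a replicate 1, Socs3 read 3.70, Slc7a7 2.90, Ranbp6 3.28 and Pxdc1 2.34. On B1a replicate 2, Cd1d1 read 0.75 against 1.53 to 1.64.

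Among the Bs arrays, replicate 4 stood out for Ranbp6 (1.15), Rps27 (3.55), Id3 (2.03), Bcl2l11 (2.35), Hspe1 (3.36) and Aen (2.32), and replicate 2 for Myc (1.44), Csf2rb (2.36) and Bcl6 (3.52). Cnr2 read 2.57 on replicate 1 and Gbp2 read 1.43 on replicate 3. None of these values brought the groups of Socs3, Tlr3, Myc or Rps27 to overlap.

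Some genes, 10 in all, were named for a cell type difference that was not the same in both strains. B1a minus Bs was greater in Sle2c1 than in B6 by 1.42 for Olfr480, 1.36 for Sall3, 1.32 for Limch1, 1.24 for Tdpoz1 and 1.16 for Extl1. It was smaller, counting the sign, with differences of -1.92 for Timd4, -1.45 for Adamts4, and -1.30 each for Faah, Ackr3 and Lpl. For Timd4, Faah and Lpl B1a minus Bs was negative in Sle2c1 and positive in B6. For Sall3, Limch1 and Tdpoz1 it could not be measured in B6, where every array was at the floor.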

How the results depend on the processing

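Of the 30 genes named for the largest differences or for a group at the floor, 30 kept direction and call under every leave-out of 1 array. Where only features never at the floor were tested, 20 of them had a value and kept the call. The other alternatives run changed no call among the 30, with the following exceptions. Ap5m1 turned from -2.04 to 0.38 (adjusted p = 0.425) with arrays fitted to the hybridisation controls by a line, and lost its call under the shift. Under the line Chchd10, Akap2 and Cd72 lost the call, without a floor Ctla4 and Tspan8, and without the pair of arrays that stood apart Tspan8. Both control-based scalings were chosen after seeing the data.

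As deposited, 2426 features were higher and 3282 lower. The higher count moved to 1595 with arrays centred on their medians (32.7% of those past being higher), 1569 without a floor, 3744 with every probe set on its own and 5218 under the shift. The lower count moved to 1145 under the shift and 81 under the line. Higher and lower counts were 1437 and 1784 at adjusted p under 0.01, and 1348 and 1958 with a difference of at least 0.5. With a replicate block they were 2405 and 3504 over 16 arrays and 1111 and 1476 over the 8 Sle2c1 arrays. Replicate numbers are not known to pair the samples. Leaving out 1 array gave 1855 to 2500 higher and 2360 to 3831 lower.

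For the difference between strains, 59 were greater and 37 smaller. These became 39 greater under the replicate block, 25 and 17 with median centring, 13 and 12 with the filter at 8 of 16 arrays, 6 and 0 where only features never at the floor were tested, 90 and 68 with every probe set, 6 and 7 with a trended robust fit, 26 and 9 at adjusted p under 0.01, 14 and 9 when the spread was estimated without groups at the floor, and 0 and 0 under the line. Without the pair of arrays that stood apart, 24 were smaller. Leaving out 1 array gave 34 to 98 and 16 to 82. The causes were not tested. Values at or near the floor limit what can be measured.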

Other observations

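Stress and survival lists had 16.7% (heat shock chaperones) to 38.9% (endoplasmic reticulum stress) of measured members past the threshold. Over all named genes 12.9% were higher and 14.5% lower, and the counts are to be read beside these shares. Of 12 heat shock chaperones, 2 were higher and none lower in Sle2c1 B1a cells. Hspa1a, an inducible HSP70 gene, read 1.77, 1.79, 1.86 and 2.23 and was at the floor on all Bs arrays, and its neighbour Hspa1b, which is nearly identical in sequence so that probe sets may share signal, was higher by 1.14. The other 10, among them Dnajb1 and Hsph1, did not pass as deposited, and 6 of 12 were higher after the shift to the hybridisation controls. Of 15 apoptosis regulators, 2 were higher and 1 lower, against 8 and 1 after the shift. Bcl2l11, which encodes the death factor BIM, was higher by 0.42 and Bak1 by 1.04, while Bmf, another death factor of the same family, read 1.83, 1.10, 0.89 and 1.45 against 2.75, 2.87, 2.63 and 3.05 and was lower. Of 12 p53 targets 2 were higher and 2 lower (3 and 2 after the shift). Phlda3, an inhibitor of AKT, was at the floor on all B1a arrays and read 1.71, 1.77, 2.08 and 1.60 in Bs cells.

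Of 19 genes of the type I interferon response, 5 were higher and 1 lower, and 2 were higher without the pair of arrays that stood apart, without Bs replicate 2, without Bs replicate 3 or with arrays centred on their medians. After the shift 7 were higher and 0 lower. Mx1, the lower member (-0.89, adjusted p = 0.0279 by limma), lost the call without the pair of arrays, without B1a replicate 1 or 4, or without Bs replicate 1 or 2. Gbp2, a guanylate-binding protein of host defence, read 2.81, 2.61, 2.68 and 2.78 against 1.22, 1.25, 1.43 and 1.22 (adjusted p = 2.54e-09 by limma). Ifit1, Irf7 and Rsad2 did not pass. Of 18 genes of endoplasmic reticulum stress and folding, 3 were higher, led by the sensor Atf6 (0.58), and 4 lower (2 without B1a replicate 4, Bs replicate 1 or Bs replicate 3, or with arrays centred on their medians). After the shift 7 were higher and 1 lower, and the median turned from -0.035 to 0.217. In the purine list, P2rx4, an ATP-gated channel, was higher by 0.49, Entpd1, which encodes the ecto-nucleotidase CD39, by 0.44 and Adk by 0.38, the last with 0 of 5 other probe sets in the same direction. After the shift 3 genes of that list were higher and 0 lower, against 3 and 1 as deposited. Of 14 genes of lipid uptake and storage, Lpl, Cd36 (-0.93) and Fabp5 (-0.42) were lower and none was higher, against 2 lower and 2 higher after the shift. Of 7 germinal centre genes, Fas (-0.45) and Mybl1 (-0.81) were lower, with 1 past the test when any of 6 arrays was left out and 0 lower and 1 higher after the shift, and Bcl6 did not pass (-0.10, adjusted p = 0.202 by limma).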
